A study of Mus musculus with 2 samples.

Results

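Non-Kupffer macrophages are the most abundant macrophage population that the authors annotated in these liver metastases, which grew from injected 4T1 cells, a triple-negative breast cancer line of the mouse. The members were all cells that carry the final label Non-Kupffer Macrophages in the authors' deposited cell table, 6061 of 44371 cells. Of these, 2934 came from the shZdhhc17 library (21511 cells in all) and 3127 from the shSCR library (22860 cells in all). The label was given by the authors from marker expression, and neither the library of origin, the depth of a cell nor its mitochondrial share entered the choice of members here.

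In the shZdhhc17 group, BALB/c mice received ZDHHC17-silenced 4T1 cells, made with a lentiviral pLKO.1 short hairpin vector and puromycin selection, and in the shSCR group they received 4T1 cells with a scrambled hairpin from the same vector system. All mice were female, 6 to 8 weeks old, and had 250000 cells injected into the spleen, which was then removed, with metastases dissected on day 14. The hairpins were in the injected cancer cells, and the mice were BALB/c in both groups. Equal cell numbers from the metastases of 3 mice were pooled per group and loaded as 1 BD Rhapsody cartridge (a microwell capture system), so each group is 1 library, single mice cannot be told apart, and no test between the groups is possible.

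Macrophages are phagocytes that clear dying cells and debris, present antigen and secrete signals that shape the surrounding tissue. The liver holds its own resident macrophages, the Kupffer cells, which sit in the sinusoids and are seeded before birth. Macrophages that gather in tumours come largely from circulating monocytes, which change their shape and gene expression as they settle, and the authors placed non-Kupffer macrophages, Kupffer cells, monocytes and conventional dendritic cells in 1 class of monocyte-derived cells.

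Adgre1, C1qa, Apoe and Csf1r were taken as markers of the label. All 4 are also on the general macrophage list used below, so they do not by themselves set these cells apart from Kupffer cells. Adgre1 encodes the surface receptor F4/80, and C1qa a chain of the complement protein C1q. Apoe encodes the lipid carrier apolipoprotein E, and Csf1r the receptor of the macrophage growth factor CSF1. All 4 were in the authors' gene table of 28523 genes, and C1qa and Apoe were among the 1000 variable genes on which the UMAP of all cells was built. On GRCm38, in GENCODE M21, Adgre1 is the protein-coding gene ENSMUSG00000004730.15 on the plus strand of chromosome 17 (57358691 to 57483527). C1qa (ENSMUSG00000036887.5) is protein-coding on the minus strand of chromosome 4 (136895917 to 136898803), and Apoe (ENSMUSG00000002985.16) on the minus strand of chromosome 7 (19696109 to 19699188). Levels per gene and cell were not analysed here, so the label was not checked against the expression of its markers.

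The variable genes, 1000 of the authors' 28523 genes, show which genes of macrophage programmes could shape the UMAP. Of 12 general macrophage genes 6 were variable, among them all 3 chains of C1q (C1qa, C1qb and C1qc), the lysozyme gene Lyz2 and the mannose receptor gene Mrc1. The Kupffer cell list had 4 of 9 variable, the lectin gene Clec4f, the complement receptor gene Vsig4, Cd5l and the scavenger receptor gene Marco. The monocyte list had 4 of 8, among them the chemokine receptor gene Ccr2, Plac8 and Nr4a1, a transcription factor of patrolling monocytes. Of 8 genes of lipid-associated tumour macrophages, 4 were variable, Gpnmb, Spp1, which encodes osteopontin, the fatty acid binding protein gene Fabp5 and the lipoprotein lipase gene Lpl. The MHC class II genes H2-Aa, H2-Ab1 and H2-Eb1 and the invariant chain gene Cd74 were variable too, 4 of 5 on the antigen presentation list. Members without the flag included Adgre1, Csf1r, Cd68 and Mertk (general list), Timd4 and Folr2 (Kupffer cells), Ly6c2 (monocytes) and Trem2 (lipid-associated macrophages). A variable gene varies across all cells of the series, so these flags do not show that it varied among the macrophages. The lists of other cell types had 5 of 5 variable genes for neutrophils, 3 of 3 for T and NK cells, 2 of 2 for B cells, 3 of 3 for endothelium, 2 of 3 for fibroblasts, 2 of 2 for hepatocytes, 2 of 6 for conventional dendritic cells and 0 of 4 for the 4T1 epithelium.

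Non-Kupffer macrophages made up nearly equal shares of both libraries when all cells were counted, and a larger share of the shZdhhc17 library when cancer cells were left out. In shZdhhc17 they were 13.6% of all cells (exact 95% interval 13.2 to 14.1), and in shSCR 13.7% (13.2 to 14.1). The ratio of these shares was 0.997. Of the cells other than cancer cells they were 21.6% in shZdhhc17 (20.9 to 22.3) and 18.8% in shSCR (18.2 to 19.4). Among the 11 annotated immune types they were 26.4% in shZdhhc17 (25.6 to 27.2) and 21.9% in shSCR (21.2 to 22.6), a ratio of 1.21. With cells matched on UMIs, the shares of all cells were 13.2% in shZdhhc17 and 14.3% in shSCR, a ratio of 0.926 with separate normal intervals. The direction thus depended on the denominator and on matching for depth. Cancer cells and neutrophils, the other large populations, differed in share between the libraries too. Cancer cells were more numerous in shZdhhc17 (7928, against 6207 in shSCR) and neutrophils less so (4328, against 6594). A macrophage share without cancer cells or among immune types depends on these numbers as well, so it does not by itself show a gain of macrophages. Separate intervals were common, found for 7 of 17 types of all cells (41.2%), 8 of 16 without cancer cells (50%) and 5 of 11 immune types (45.5%). These intervals cover counting error only and allow for no differences between mice.

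Against the types closest to it, the population was smaller relative to Kupffer cells and larger relative to monocytes in the shZdhhc17 library. There were 3.91 non-Kupffer macrophages per Kupffer cell in shZdhhc17 and 5.79 in shSCR, a ratio of 0.676 (95% counting interval 0.598 to 0.763). Per monocyte, the precursor that blood delivers, there were 1.83 in shZdhhc17 and 1.41 in shSCR, a ratio of 1.30 (1.2 to 1.41). Without matching for depth, non-Kupffer macrophages were nearly equal shares of all cells, so both ratios mirror the shares of the other types. Of all cells, Kupffer cells were 3.49% in shZdhhc17 and 2.36% in shSCR, and monocytes 7.47% in shZdhhc17 and 9.72% in shSCR. Of the authors' monocyte-derived class, the non-Kupffer macrophages were 53.1% in shZdhhc17 (51.7 to 54.4) and 50.5% in shSCR (49.3 to 51.8), with intervals that barely overlapped. Within that class, monocytes were 29.0% in shZdhhc17 and 35.9% in shSCR, and Kupffer cells 13.6% and 8.72%. Of all macrophages, resident and other, 79.6% were non-Kupffer in shZdhhc17 (78.3 to 80.9) and 85.3% in shSCR (84.1 to 86.4). In molecules rather than cells, the non-Kupffer macrophages held 12.8% of all UMIs (unique molecular identifiers, the count of captured molecules) of the shZdhhc17 library and 13.2% of those of the shSCR library.

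**Figure D1:**
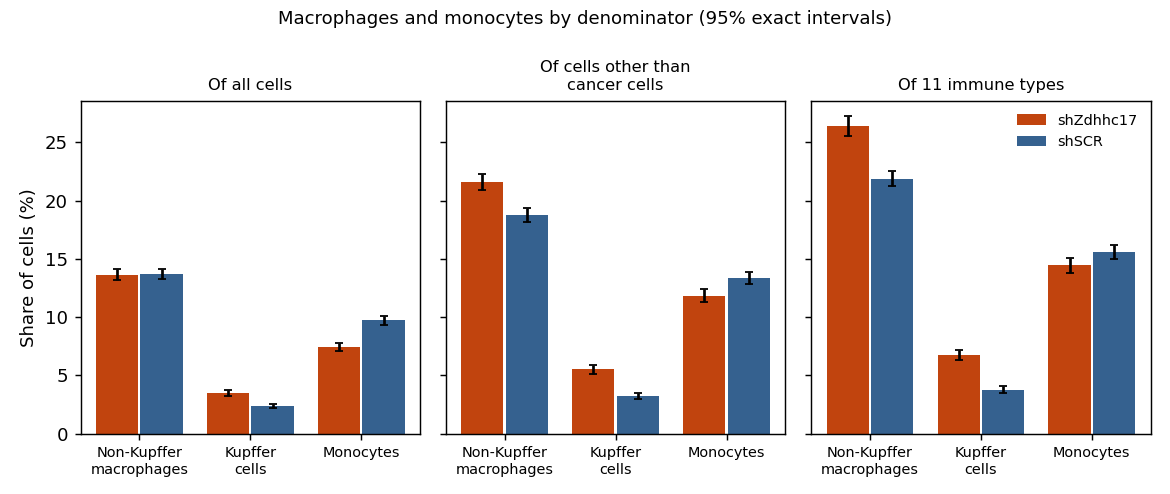
Bars give the share of cells (%) of non-Kupffer macrophages, Kupffer cells and monocytes in the shZdhhc17 and shSCR libraries, 1 pooled library each, with exact 95% binomial intervals, for each of 3 denominators. Non-Kupffer macrophages stand at 13.6% and 13.7% of all cells, and at 26.4% and 21.9% of the immune types.

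The label was assembled from many initial clusters, which the authors had made at high resolution on all cells. Members were found in 25 of 138 initial clusters, and 16 of these held 50 or more of them, 5992 members in all. In 15 of the 16 the label took between 87.6% (cluster 26) and 100% (cluster 51) of the cells. Cluster 2 was the exception, with 65 members among 610 cells and 545 monocytes beside them. The 15 clusters also held 120 cells finally labelled monocytes, 52 labelled Kupffer cells and 60 set apart as the doublet label D21. In the other direction, 104 members came from 7 clusters that were mostly monocytes and 30 from 3 that were mostly Kupffer cells. In number of cells, the boundary with monocytes was thus crossed more often than that with Kupffer cells, in both directions. The series held 3828 monocytes and 1290 Kupffer cells, and these counts are not scaled to the size of each type.

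Inside the population, the makeup differed between the libraries. Cluster 22 made up 10.1% of the shZdhhc17 members (9.02 to 11.2, 296 cells) and 4.61% of the shSCR members (3.90 to 5.40, 144 cells), a ratio of 2.19. Cluster 103 was at 4.77% in shZdhhc17 (4.03 to 5.61) and 2.72% in shSCR (2.18 to 3.35), a ratio of 1.76. Cluster 38 was at 8.66% in shZdhhc17 (7.66 to 9.73) and 5.40% in shSCR (4.64 to 6.26), a ratio of 1.60. These 3 were higher in shZdhhc17 with separate intervals.

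Clusters 8, 51 and 90 had the opposite difference, a lower share in shZdhhc17, again with separate intervals. Cluster 8, the largest of all with 538 members, made up 6.44% of the shZdhhc17 members (5.58 to 7.39) and 11.2% of the shSCR members (10.1 to 12.3), a ratio of 0.577. Cluster 90 was at 3.37% in shZdhhc17 (2.75 to 4.09) and 5.21% in shSCR (4.46 to 6.05), a ratio of 0.647. Cluster 51 was at 5.32% in shZdhhc17 (4.53 to 6.19) and 7.45% in shSCR (6.55 to 8.43), a ratio of 0.714. So 3 of 16 clusters were higher and 3 lower in shZdhhc17. Of all 121 pairs of an annotated type and an initial cluster with 50 or more of its cells, 52.9% had separate intervals, 28.1% higher and 24.8% lower in shZdhhc17. The share of clusters with separate intervals was 37.5% in non-Kupffer macrophages, against 70.3% of 37 clusters in cancer cells, 56.3% of 32 in neutrophils and 36.4% of 11 in monocytes. The macrophages thus lay below the share over all pairs. Larger clusters give narrower intervals, and the difference between types was not tested.

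The other 10 clusters had overlapping intervals, with ratios from 0.545 in cluster 2 to 1.21 in cluster 52. Cluster 13 had nearly equal shares, 8.55% in shZdhhc17 and 8.54% in shSCR, and so had cluster 41 (6.82% and 7.0%), cluster 55 (6.07% and 6.27%) and cluster 63 (5.52% and 5.69%). Cluster 7 was at 8.04% in shZdhhc17 and 9.08% in shSCR, cluster 23 at 7.94% and 6.65%, and cluster 26 at 5.79% and 7.23%. Cluster 88 was at 3.95% in shZdhhc17 and 4.67% in shSCR, cluster 52 at 6.88% and 5.69%, and cluster 2 at 0.75% and 1.38%. Overlap does not show equal shares, and for 2 of these 10 clusters the 95% counting interval of the ratio itself lay below 1, cluster 2 with a ratio of 0.545 (0.327 to 0.909) and cluster 26 with 0.802 (0.661 to 0.972).

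**Figure D2:**
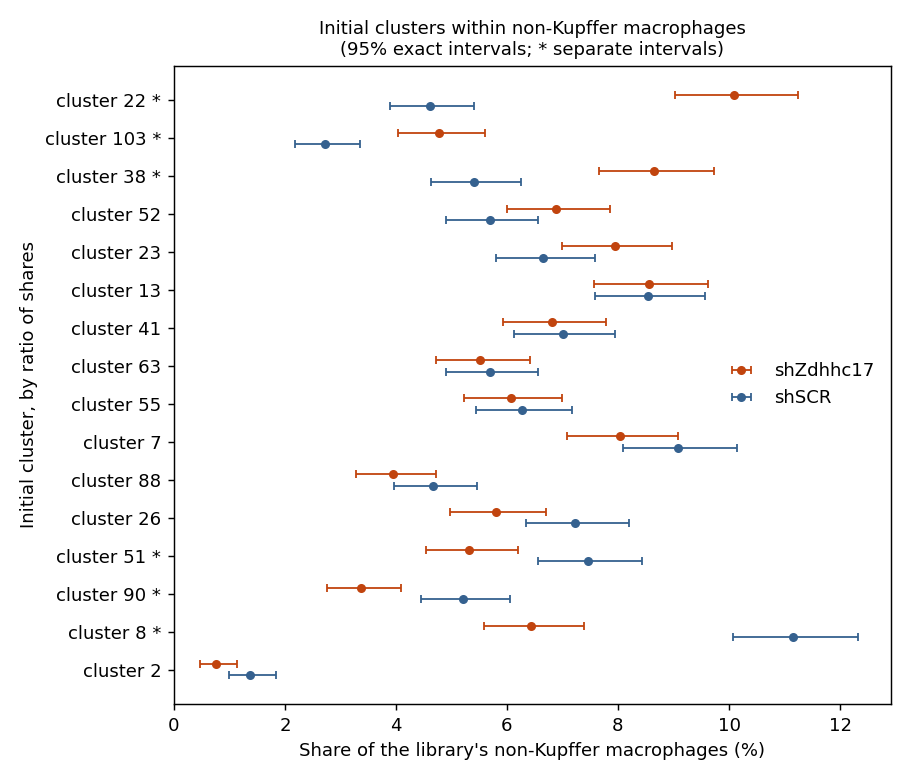
Points give the share of each library's non-Kupffer macrophages (%) in each initial cluster with 50 or more of them, with exact 95% intervals, ordered by the ratio of the shZdhhc17 to the shSCR share. Clusters 22, 103 and 38 lie to the right in shZdhhc17 and clusters 51, 90 and 8 to the left, with separate intervals.

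The authors clustered these macrophages once more, together with the 61 cells of the label D21, and this gave much finer groups. The 6061 members fell into 263 groups with a median of 22 cells (4 to 56). A group drew a median of 60% of its cells from its main initial cluster, and 13 groups came from 1 initial cluster alone. The shZdhhc17 library gave 48.4% of all members and a median of 48.4% of the cells of a group, with quartiles of 36.4% and 61.5%. In 25 groups over 75% of the cells were from shZdhhc17, and in 28 groups under 25% were. Only 1 group had no shSCR cell and 2 had no shZdhhc17 cell, so nearly all of the fine groups were drawn from both libraries. Among the parts of initial cluster 22 that held 15 or more cells, the shZdhhc17 share ran from 37.5% to 95.2%, and in cluster 8 from 7.14% to 69.6%. Wide ranges were also found in clusters with overlapping intervals, such as cluster 23 (29.4% to 87.5%) and cluster 52 (22.7% to 76.5%), and with so few cells in a part the shares carry wide counting error.

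On the deposited UMAP the members lay mostly among themselves, beside monocytes and Kupffer cells. UMAP distances have no unit and the clusters come from the same expression data, so the following neighbour counts describe the map and are no separate evidence. Of the 15 nearest cells of a member, 95.2% were non-Kupffer macrophages on average, 2.80% monocytes, 1.10% Kupffer cells and 0.856% doublets. These shares are not scaled to the size of each type, 3828 monocytes and 1290 Kupffer cells in the series. By the distance between median positions on the map, Kupffer cells were slightly nearer to the members (0.218) than monocytes (0.244). None was a neutrophil, a conventional dendritic cell, a cancer cell or a cell annotated as MDSC. Monocyte neighbours were at 2.39% for shZdhhc17 members and 3.19% for shSCR members, and Kupffer neighbours at 1.2% and 1.00%. The order is that of the monocyte and Kupffer shares of the libraries.

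Clusters differed in which neighbour they faced. Cluster 2 lay inside the monocyte field, with 71.2% monocyte neighbours, and clusters 90 (5.62%), 26 (5.42%), 103 (4.33%) and 7 (3.58%) faced the monocytes. Kupffer neighbours were highest for cluster 88 (3.10%), then cluster 26 (1.60%), cluster 52 (1.40%) and cluster 23 (1.35%). Clusters 8 and 55 had no monocyte among the nearest cells, and clusters 13, 51, 55, 90 and 2 had no Kupffer cell. The clusters with a higher shZdhhc17 share did not lie in 1 place. Cluster 103 was nearest to cluster 63 and then to cluster 22 by the distance of medians, while cluster 38 lay apart, next to clusters 41 and 13. Of the clusters with a lower share, 51 and 90 both had cluster 13 as the nearest, and cluster 8 had cluster 55 and then cluster 51. The rank correlation between monocyte neighbours and the ratio of library shares over the 16 clusters was -0.04, and it was 0.17 without cluster 2. The clusters share 2 libraries and 1 map, and this value is a description only.

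**Figure D3:**
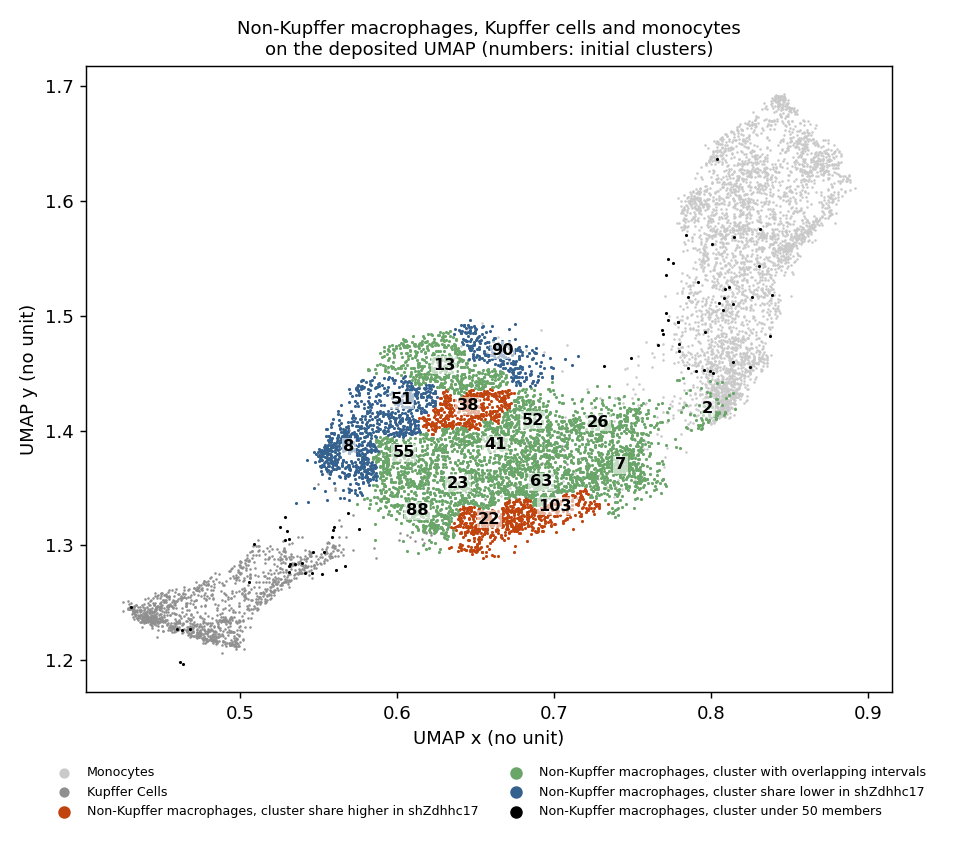
Each point is 1 cell on the authors' UMAP (both axes without unit), with monocytes in light grey, Kupffer cells in dark grey and non-Kupffer macrophages coloured by whether the share of their initial cluster was higher in shZdhhc17, lower, or had overlapping intervals. The numbers mark clusters, and clusters 22 and 103 lie at the lower edge while clusters 8, 51 and 90 lie at the left and upper edges.

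The shZdhhc17 macrophages carried fewer molecules. Their median was 6959.5 UMIs per cell (quartiles 4593.5 and 9728.5), against 8362 in the shSCR macrophages (5337 and 11849.5), a ratio of 0.832. Detected genes per cell had medians of 2523 in shZdhhc17 and 2750 in shSCR. For Kupffer cells the medians were 8256 (shZdhhc17) and 10071 UMIs (shSCR), a ratio of 0.820, and monocytes 4371 and 5926, a ratio of 0.738. In both libraries the non-Kupffer macrophages therefore lay between monocytes and Kupffer cells in depth. Among the 11 types with 200 or more cells in each library, the ratios ran from 0.551 in T cells to 0.889 in B cells, and only B cells and conventional dendritic cells were above the non-Kupffer macrophages. Lower depth in shZdhhc17 was thus shared by all 11 of these types. Capture or sequencing of a library and RNA content of its cells cannot be told apart here.

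Within the clusters the medians ran from 4434 (cluster 13) to 9240 (cluster 63) UMIs in shZdhhc17 and from 5503 (cluster 2) to 11042 (cluster 63) in shSCR. Clusters with many UMIs per cell in 1 library had many in the other, with a rank correlation of 0.82 over the 16 clusters. In 15 of them the shZdhhc17 median was the lower one, with ratios from 0.711 in cluster 88 to 0.941 in cluster 2. With the same cluster weights in both libraries, the weighted mean of the cluster medians was 6871.6 UMIs in shZdhhc17 and 8578.4 in shSCR, a ratio of 0.801. Depth was thus also lower in shZdhhc17 with a fixed makeup of clusters. A mean of cluster medians is another measure than the median over all members, so the size of the 2 ratios is not compared.

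Cluster 103 was the exception, with a median of 8970 UMIs in shZdhhc17 (quartiles 6107 and 12187.2) and 7623 in shSCR (3753 and 11951), a ratio of 1.18. The upper quartiles were close and the lower ones far apart. Cells under 1000 UMIs made up 2.14% of its shZdhhc17 cells (0.444 to 6.13, 3 cells) and 11.8% of its shSCR cells (5.79 to 20.6, 10 cells). Cluster 22 had a similar excess, with 3.72% in shZdhhc17 (1.87 to 6.55) and 12.5% in shSCR (7.58 to 19.0), and was the only 1 of the 16 clusters (6.25%) with separate intervals. Without the cells under 1000 UMIs, cluster 103 had medians of 9002 and 8526 (ratio 1.06) and cluster 22 7160 and 8951 (ratio 0.80). Both clusters remained more frequent in shZdhhc17 with separate intervals among cells of 1000 or more UMIs, at ratios of 1.94 for cluster 103 and 2.40 for cluster 22. In the population as a whole such cells were 3.37% in shZdhhc17 (2.75 to 4.09) and 3.74% in shSCR (3.10 to 4.47).

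**Figure D4:**
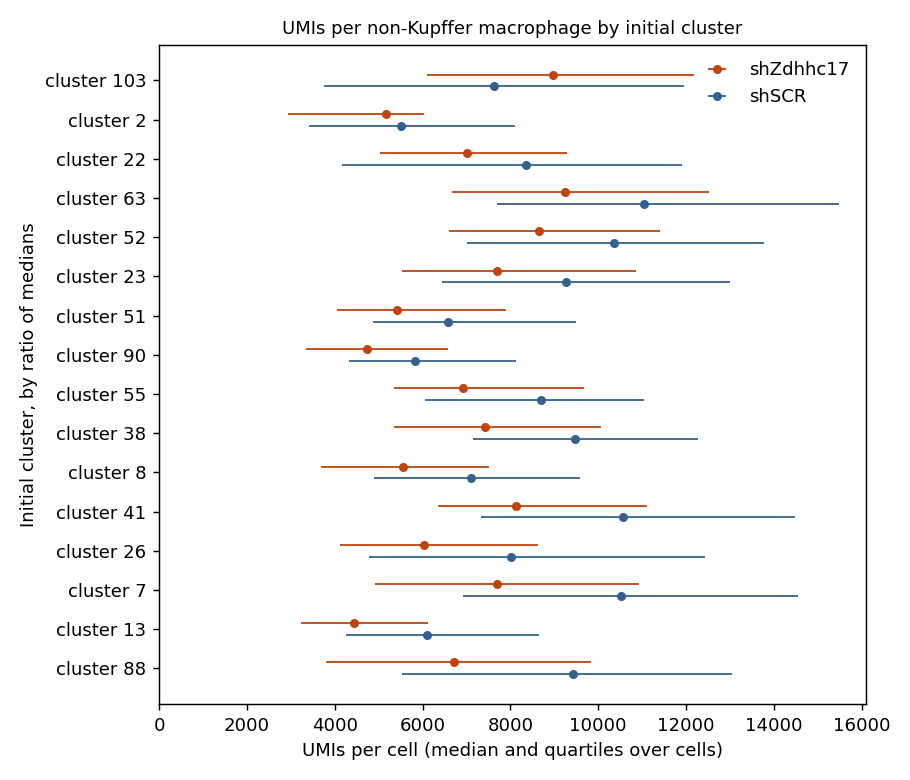
Points give the median UMIs per non-Kupffer macrophage in each initial cluster and library, and lines the quartiles over cells, ordered by the ratio of the shZdhhc17 to the shSCR median. The shZdhhc17 median is the lower one in every cluster except cluster 103, where it is 8970 against 7623.

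In classes of like depth the macrophages of the 2 libraries had nearly the same number of detected genes. In 10 classes of UMIs (each with an equal number of members), the class medians averaged 2639.6 genes in shZdhhc17 and 2598.1 in shSCR, a ratio of 1.02, and shZdhhc17 was higher in 9 of the 10. In the lowest class, up to 2788 UMIs, the medians were 862.5 genes in shZdhhc17 and 711 in shSCR, but those cells had medians of 1513 and 1138 UMIs, so depth was not equal there. From the second to the ninth class shZdhhc17 was higher by 7.5 to 76 genes. In the highest class it was lower, with 4251.5 genes in shZdhhc17 and 4301 in shSCR, and depth was again unequal, with medians of 16549 and 17652 UMIs. The same ratio was 1.03 in Kupffer cells and 1.02 in monocytes, so a small excess was found in these types too. The classes were cut on the UMIs of the non-Kupffer macrophages, and the smallest held 21 Kupffer cells or 42 monocytes of a library. Depth was unequal in the lowest class there as well. Its median UMIs were 1122 in shZdhhc17 and 935 in shSCR for Kupffer cells, and 2139 and 1914 for monocytes.

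The share of UMIs from mitochondrial genes, which varies with the respiratory activity of a cell and rises when cytoplasmic RNA leaks out, was alike in the libraries. Non-Kupffer macrophages had medians of 6.03% in shZdhhc17 (quartiles 4.81% and 7.20%) and 6.06% in shSCR (4.82% and 7.18%). Kupffer cells were higher, with 6.86% in shZdhhc17 and 7.06% in shSCR, and monocytes lower, with 5.10% and 5.67%. Cells above 10% made up 2.49% of the shZdhhc17 macrophages (1.96 to 3.12) and 3.55% of the shSCR macrophages (2.93 to 4.26), with overlapping intervals, and 7.60% (5.81 to 9.73) and 12.6% (9.91 to 15.7) of Kupffer cells, with separate ones. Separate intervals were found in 18.2% of the 11 types with 200 or more cells per library. Among the 16 macrophage clusters, 0 (0%) had separate intervals for this share, and numbers of such cells per cluster were low.

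Mitochondrial share set some clusters apart from others in the same way in both libraries. The cluster medians had a rank correlation of 0.99 between the libraries. Cluster 2 was the lowest, with 3.38% in shZdhhc17 and 2.91% in shSCR, followed by cluster 26 (4.72% and 4.90%), cluster 7 (4.92% and 5.24%) and cluster 90 (5.02% and 5.56%). The highest was cluster 88, at 6.70% in shZdhhc17 and 6.93% in shSCR. It had the most Kupffer neighbours, but cluster 55, with none, was close at 6.69% in shZdhhc17 and 6.71% in shSCR. Cluster 26, next after cluster 88 in Kupffer neighbours (1.60%), was among the lowest. The 4 clusters with the lowest mitochondrial share lay in or faced the monocyte field. Their medians were below those of monocytes themselves (5.10% in shZdhhc17 and 5.67% in shSCR). Cluster 103 also faced the monocytes, at 4.33% of its nearest cells, and had mitochondrial medians of 5.99% in shZdhhc17 and 6.11% in shSCR. Over the 16 clusters, with the libraries pooled, the rank correlation of the median mitochondrial share with the share of monocyte neighbours was -0.78, and -0.73 without cluster 2.

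Clusters 7, 26 and 2 also had fewer detected genes than other members of the same library and UMI class. As medians over cells, the difference from the class median was -5.39% in shZdhhc17 and -6.34% in shSCR for cluster 7. For cluster 26 it was -5.17% in shZdhhc17 and -4.24% in shSCR, and for cluster 2 -6.34% and -4.43%. Clusters 8 (2.36% in shZdhhc17 and 2.91% in shSCR), 23 (1.66% and 2.73%) and 88 (1.72% and 2.34%) lay above it. A low number of genes at equal UMIs means that fewer genes take a larger part of a cell's molecules. Over the 16 clusters, the rank correlation of this measure with the median mitochondrial share was 0.81, and 0.78 without cluster 2. Mitochondrial share and genes per cell come from the same counts, the clusters share 2 libraries, and these correlations are descriptions.

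**Figure D5:**
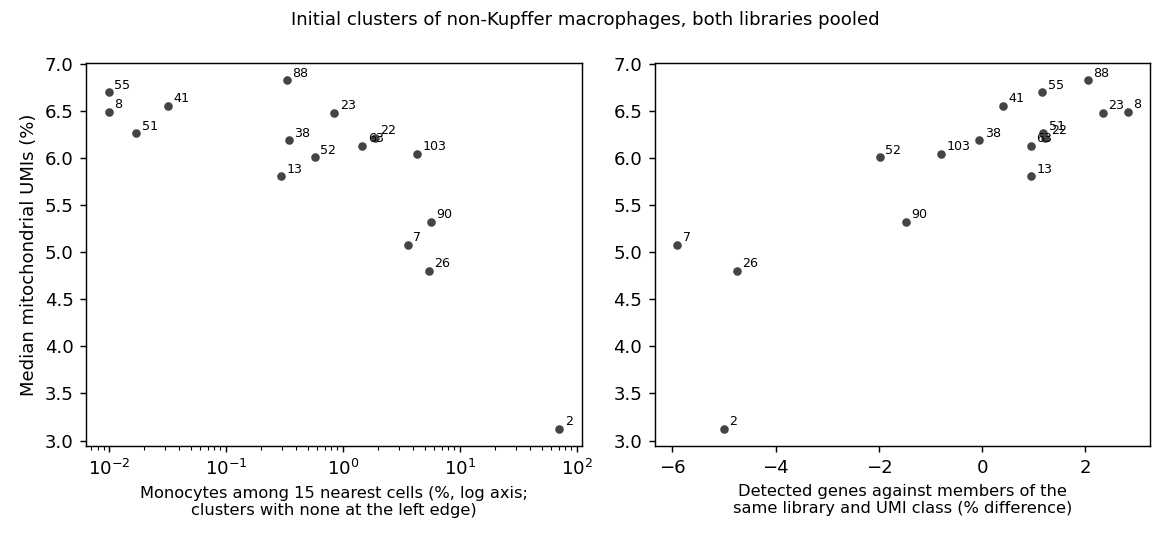
Each point is 1 initial cluster of non-Kupffer macrophages with both libraries pooled, with its median mitochondrial share of UMIs (%) on the vertical axes. The horizontal axes give the share of monocytes among the 15 nearest cells on the UMAP (left, log axis) and the median difference in detected genes from members of the same library and UMI class (right), and clusters 2, 26, 7 and 90 sit lowest in both panels.

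The cells that the authors took out of this population as D21 numbered 36 in shZdhhc17 (0.167% of the library, 0.117 to 0.232) and 25 in shSCR (0.109%, 0.0708 to 0.161). They had medians of 9595.5 UMIs and 2730.5 genes in shZdhhc17 and 17280 UMIs and 4401 genes in shSCR. In shSCR the median UMIs of D21 lay above the upper quartile of the macrophages (11849.5), and in shZdhhc17 below it (9728.5). Across the libraries 609 cell barcodes occurred in both, and 8 of these were non-Kupffer macrophages in both. Leaving out all cells with such a barcode gave a ratio of 0.997 for the share of all cells, and the same 6 clusters were called.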

How the data were processed

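The members, lists and comparisons were chosen with earlier results of these data known. Reads had gone through the BD Rhapsody pipeline, and the authors then corrected for ambient RNA, clustered, reclustered selected sets and named cell types from markers, per the file headers. The submitters' processing notes name Seurat 4.1.0 and the builds GRCm38 and mm10. The version of the pipeline and the tool for the ambient correction are not stated in what was used here. The deposited table holds whole-number counts per cell (total UMIs and detected genes), the percent of UMIs from mitochondrial genes, and UMAP coordinates, a deposited score without unit. No cell had fewer than 500 UMIs or more than 15% mitochondrial UMIs. Doublets were removed from types by the authors' labels, stayed in the denominator of all cells, and no doublet caller was run here.

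No test between the groups was made, since each is a single library. Shares have exact (Clopper-Pearson) 95% intervals, and ratios log-normal ones, for counting error only. Separate exact intervals were required to call a share higher or lower, except for shares matched on UMIs, where separate normal intervals were required. Overlap does not show equality. Clusters with 50 or more members are named, which was the rule for naming. The 14 gene lists were used only for the flag of variable genes. As alternatives, the denominator, limits on UMIs and on mitochondrial percent, matching on UMIs, the cluster minimum and the number of neighbours were varied. Python 3.11.15, pandas 2.3.3, numpy 2.4.6, scipy 1.17.1 and matplotlib 3.10.9 were used.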

Additional observations from a re-analysis of the deposited data

Results flagged for a closer look

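Cluster 103 was picked out because its median UMIs differed between the libraries in the other direction than in the population as a whole, with a ratio of 1.18 (8970 in shZdhhc17 and 7623 in shSCR) against 0.832. This difference between clusters was not tested. It was 1.06 among cells of 1000 or more UMIs.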

How the results depend on the processing

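No paired analysis was possible because each group is 1 pooled library. The share ratio of 0.997 among all cells was 1.15 among cells other than cancer cells, 1.21 among immune types, 1.05 in the monocyte-derived class, 1.05 with at least 1000 UMIs and 0.926 after matching on UMIs. The matched shares (13.2% in shZdhhc17 and 14.3% in shSCR) had separate normal intervals, so whether this share was higher or lower depended on the denominator and on how depth was handled, and the cause was not tested. The label took 88.5% of the cells of its 16 clusters, and 96.2% without cluster 2. The same 6 clusters were called under all 7 alternatives, with clusters 2 and 52 added by matching (8 called). The matched calls rest on normal rather than exact intervals, and cluster 2 had only 22 shZdhhc17 members. The ratios per Kupffer cell and per monocyte, UMIs and genes at equal UMIs kept their direction. The median mitochondrial percent of shZdhhc17 minus that of shSCR was -0.03 points with all members. It lay between -0.098 and -0.00028 points in the alternatives, and no direction is read from it. Non-Kupffer macrophages were 95.2% of the nearest 15 cells, 95.3% of the nearest 5 and 95.2% of the nearest 50. The choices on barcodes, the monocyte-derived class and the cluster minimum for purity were made after seeing the data. Few members limit the precision in small clusters (cluster 2, ratio interval 0.327 to 0.909).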
